A study of Arabidopsis thaliana with 8 samples.

Results

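The comparison described here is the effect of a thylakoid ascorbate peroxidase transgene on leaf gene expression in Arabidopsis thaliana, averaged over plants with and without a functional FLU gene. It used all 8 arrays of the series, chosen by their titles: 4 arrays carried the overexpressor over-tAPX 14-2 and 4 did not. The lines were wild type Columbia (WT), the flu T-DNA insertion mutant SAIL_136_E05 (flu), the overexpressor of line 14-2 in Columbia (tAPX), and flu plants with the same overexpressor (flu tAPX), with 2 arrays each. All plants were 3 weeks old, grown in continuous light, then kept 8 h in the dark and harvested after 2 h of light. Each array held RNA pooled from 3 of 6 experiments, each with leaves of 10 or more rosettes from every line, so the spread between arrays is one between pools. Both groups with the transgene carry line 14-2, so an effect of extra peroxidase and an effect of that line or its insertion cannot be told apart. The labels do not name the promoter of the transgene.

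Ascorbate peroxidases reduce hydrogen peroxide to water with ascorbate as the electron donor. The chloroplast has a form bound to the thylakoid membrane, encoded by TAPX, and a soluble form in the stroma, encoded by SAPX. The thylakoid form acts next to photosystem I, where reduction of oxygen gives superoxide and then hydrogen peroxide, and the oxidised ascorbate is regenerated by monodehydroascorbate reductases, dehydroascorbate reductases and glutathione reductases. FLU is a brake on tetrapyrrole synthesis in darkness; without it protochlorophyllide builds up, and on return to light the plastid produces singlet oxygen.

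The arrays were Affymetrix ATH1, on which a probe set of short oligonucleotides reads 1 transcript, or several related ones, as a signal on a linear scale. Titles, source names and genotype entries gave the 4 lines alike, whereas some free-text descriptions named another accession, another genotype or a shorter time in light; the titles were followed. Replicate arrays correlated across probe sets with r from 0.938 (flu tAPX) to 0.981 (tAPX). Arrays differing only in the transgene correlated about as closely, at 0.960 to 0.971 for WT with tAPX and 0.935 to 0.972 for flu with flu tAPX. The 24 probe sets for poly-A spike-in controls, read on a log2 scale, averaged 0.17 lower in tAPX than in WT and 0.55 higher in flu tAPX than in flu. When the arrays were rescaled on these controls, TAPX was still the only call, and the median of all tested probe sets moved from -0.02 to -0.20. RCA, for Rubisco activase of green leaf tissue, had signals of 24891 to 31736.5 on all 8 arrays.

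TAPX was higher in every array with the transgene and was the only probe set past the threshold. Its signals were 2558 and 3115 on the WT arrays and 22960 and 22043 on the tAPX arrays. They were 1656 and 1729 on the flu arrays and 22703 and 23222 on the flu tAPX arrays. The 4 arrays with the transgene lay within a narrow band, far above those without it, and no array of the 1 kind reached the other. Over both backgrounds the difference was 3.37 ± 0.16 (SE) on the scale of log2(signal + 16), with a 95% interval of 3.03 to 3.71 and an adjusted p of 4.03e-06 in limma. This equals 10.3-fold, with an interval of 8.15 to 13.1. The ratio of mean signals was 7.93 without the flu mutation and 13.6 with it. The endogenous gene read lower in flu than in WT, by -0.73 ± 0.15 in log2 (adjusted p = 0.0062), whereas flu tAPX and tAPX differed by 0.03. The table gives no mark of saturation, so a limit of the probe set's range on this fold was not tested.

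**Figure D1:**
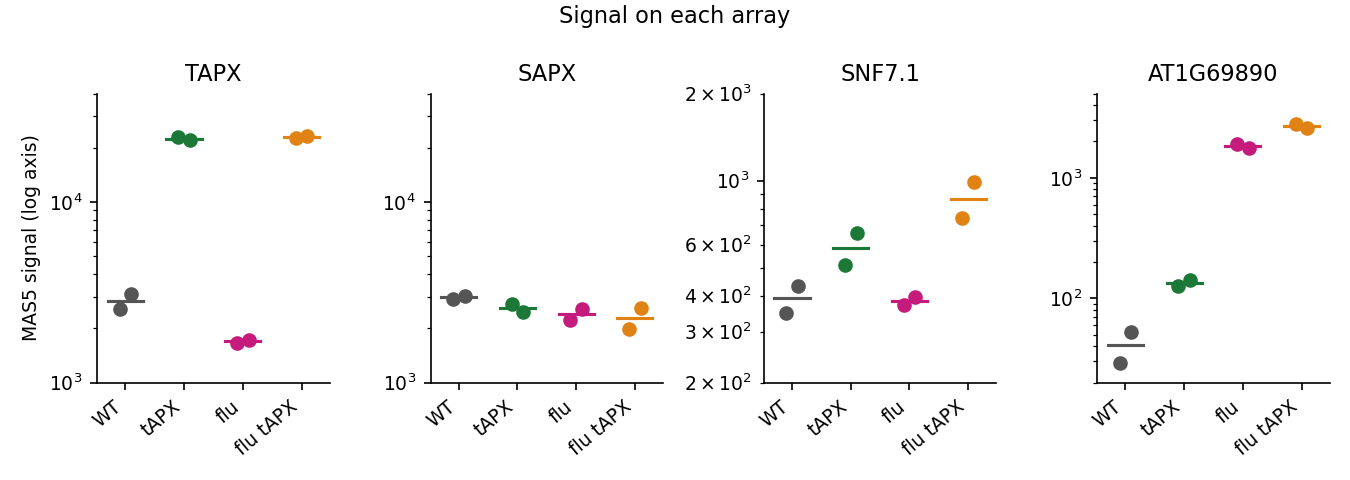
MAS5 signal on a log axis for TAPX, SAPX, SNF7.1 and AT1G69890; each point is 1 array (2 per line) and each bar the line's mean. TAPX was at 22043 to 23222 on the arrays with the transgene and at 1656 to 3115 on those without, while SAPX did not separate.

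Beyond TAPX, the arrays showed no transcript that limma could set apart with the transgene. Of 14947 probe sets tested with the flu mutation as a covariate, 1 was higher and 0 were lower at an adjusted p under 0.05, which is 0.00669% of those tested. At an unadjusted p under 0.05 there were 431 (2.88%), of which 193 (1.29%) were higher and 238 (1.59%) lower. The next lowest adjusted p after TAPX was 0.999, and this value applies to every other gene named below. In the same fit, the flu mutation changed 6610 probe sets (44.2%).

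Averaged over the backgrounds, the transgene effects were small as well as uncalled. Opposite effects in the backgrounds cancel in this average. The median size of a log2 difference, regardless of sign, was 0.12 for the transgene and 0.45 for the flu mutation. Differences between the 2 replicate arrays of a line had medians of 0.17 (tAPX), 0.23 (WT), 0.27 (flu) and 0.36 (flu tAPX), each the difference of single arrays and not of means. An averaged difference of at least 2-fold was found for 35 probe sets (0.234%) with the transgene, and for 2613 with the mutation. Within a background, from 2 arrays a side, it was found for 327 probe sets other than TAPX between tAPX and WT. Between flu tAPX and flu it was found for 284. The 95% interval of the averaged transgene effect lay inside a 2-fold change in either direction for 13055 probe sets (87.3%), and inside a 1.5-fold change for 8686 (58.1%). It does not bound the effect within 1 background. For the rest the 8 arrays did not bound the effect so closely. The median difference of all tested probe sets was -0.02, and 44.3% lay above 0.

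Among the 8140 tested probe sets with 1 gene, SNF7.1, AT1G69890 and AT3G13590 had the highest moderated t values after TAPX. The other tested probe sets were not ranked. None of them passed (adjusted p = 0.999). SNF7.1 encodes a subunit of the ESCRT-III complex, which sorts membrane proteins into vesicles inside endosomes. Its signals were 349.5 and 432 in WT, 512 and 659 in tAPX, 371 and 395 in flu, against 740.4 and 992 in flu tAPX. All arrays with the transgene lay above all without it, in either background, and the difference was 0.84 ± 0.17 with an interval of 0.46 to 1.23. SNF7.2, the closely related gene, had 554 to 768 on the arrays without the transgene and 544 to 782 on those with it, a difference of 0.02 ± 0.16.

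AT1G69890 had 29.3 and 52.7 in WT, 126 and 142 in tAPX, 1889 and 1769 in flu, against 2777 and 2579 in flu tAPX. The flu mutation moved this gene far more (4.61 in log2) than the transgene did (0.99 ± 0.20). AT3G13590 had 50.1 and 39.8 in WT, 109 and 122 in tAPX, 124 and 55.9 in flu, against 162 and 207 in flu tAPX, a difference of 1.05 ± 0.27. Its levels were dim throughout, and each background kept its groups apart. AT3G47850 had 165 and 157 in WT, 245 and 249.6 in tAPX, 173 and 135 in flu, against 236 and 254 in flu tAPX. Its effect was nearly equal in the backgrounds, at 0.57 without the mutation and 0.63 with it.

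The 15 named genes with the highest t values had differences of 0.51 to 1.56, 7 of them at least 2-fold. In 14 of the 15 the arrays with the transgene lay above those without it in each background, against 1.75% of all tested probe sets, a share that the ranking itself raises. AT1G36970 had the largest of these differences, 1.56 ± 0.43, from signals of 14.5 and 10.7 in WT, 69.0 and 57.4 in tAPX, 9.35 and 56.2 in flu, against 110 and 129 in flu tAPX. AT1G28040 (1.51 ± 0.43) and AT1G78720 (interval 0.44 to 2.36) were of like size. These 3 genes were dim, with no signal above 233 on any array. AT5G28700 (1.01 ± 0.30), AT2G25460 (1.02 ± 0.29) and AT3G52070 (1.00 ± 0.31) followed, then AT1G31335 (0.90 ± 0.28), AT3G63090 (0.64 ± 0.20), AT1G76405 (0.59 ± 0.18) and AT1G11050 (0.51 ± 0.16). AT1G76470 (0.85 ± 0.26) was the exception whose arrays overlapped, in flu plants: 518 and 366 without the transgene and 660 and 504 with it. Of the 15 genes, 12 had a mean level below the median of all tested probe sets. By the model of the 4 line means, 4 were raised by the flu mutation, against 17.1% of all tested in the additive fit.

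On the low side stood genes for a glutaredoxin, a nucleoporin and a cytosolic enolase, again with no call (adjusted p = 0.999). ROXY1, a glutaredoxin known from petal development, had 124 and 143 in WT, 38.4 and 57.0 in tAPX, 68.5 and 104 in flu, against 46.1 and 31.8 in flu tAPX. Its difference was -1.06 ± 0.30, and the groups did not overlap in either background. SEH1H, a protein of the nuclear pore, had 373 and 403 in WT, 316 and 242 in tAPX, 377 and 367 in flu, against 274 and 221 in flu tAPX, a difference of -0.51 ± 0.15. SEH1H was alike in WT and flu, and lower by a like amount with the transgene in each (-0.46 and -0.56). ENOC, the enolase, a step of glycolysis, had 1247 and 848 in WT, 555 and 646 in tAPX, 678 and 625 in flu, against 559 and 475 in flu tAPX (-0.55 ± 0.16).

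SKU5, a cell wall protein that affects the direction of root growth, was the brightest of these genes. Its signals were 3809 and 4129 in WT, 2704.5 and 3750.2 in tAPX, 1799 and 1688 in flu, against 1189.7 and 1248 in flu tAPX, a difference of -0.41 ± 0.13. AT1G08940 had 262 and 163 in WT, 95.3 and 122 in tAPX, 1427 and 1230.2 in flu, against 1029 and 902 in flu tAPX. It was thus raised by the flu mutation and read lower with the transgene in each background, by -0.65 ± 0.18 in all. The 15 genes with the lowest t values had differences from -0.41 to -1.60, with AT3G63240 at -1.60 ± 0.48 and AT3G09360 at -1.38 ± 0.41 the largest. Both were dim, with 5.80 to 72.8 and 16.8 to 62.5 on the arrays with the transgene. AT1G51540 (-0.92 ± 0.25), AT2G37980 (-0.95 ± 0.30), AT1G63640 (-0.64 ± 0.20) and AT4G20760 (-0.60 ± 0.19) were intermediate. AT5G15680 (-0.57 ± 0.17), AT3G58050 (-0.49 ± 0.16) and AT1G74370 (-0.43 ± 0.13) were smaller. In 14 of the 15 the arrays did not overlap in either background, against 2.86% of all tested, a share that the ranking itself raises. AT3G03610 (-0.67 ± 0.21) was the exception. Of these 15, the flu mutation called 7, of which 2 were raised, against 44.2% called of all tested, and 9 had a mean level below the median of all tested.

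**Figure D2:**
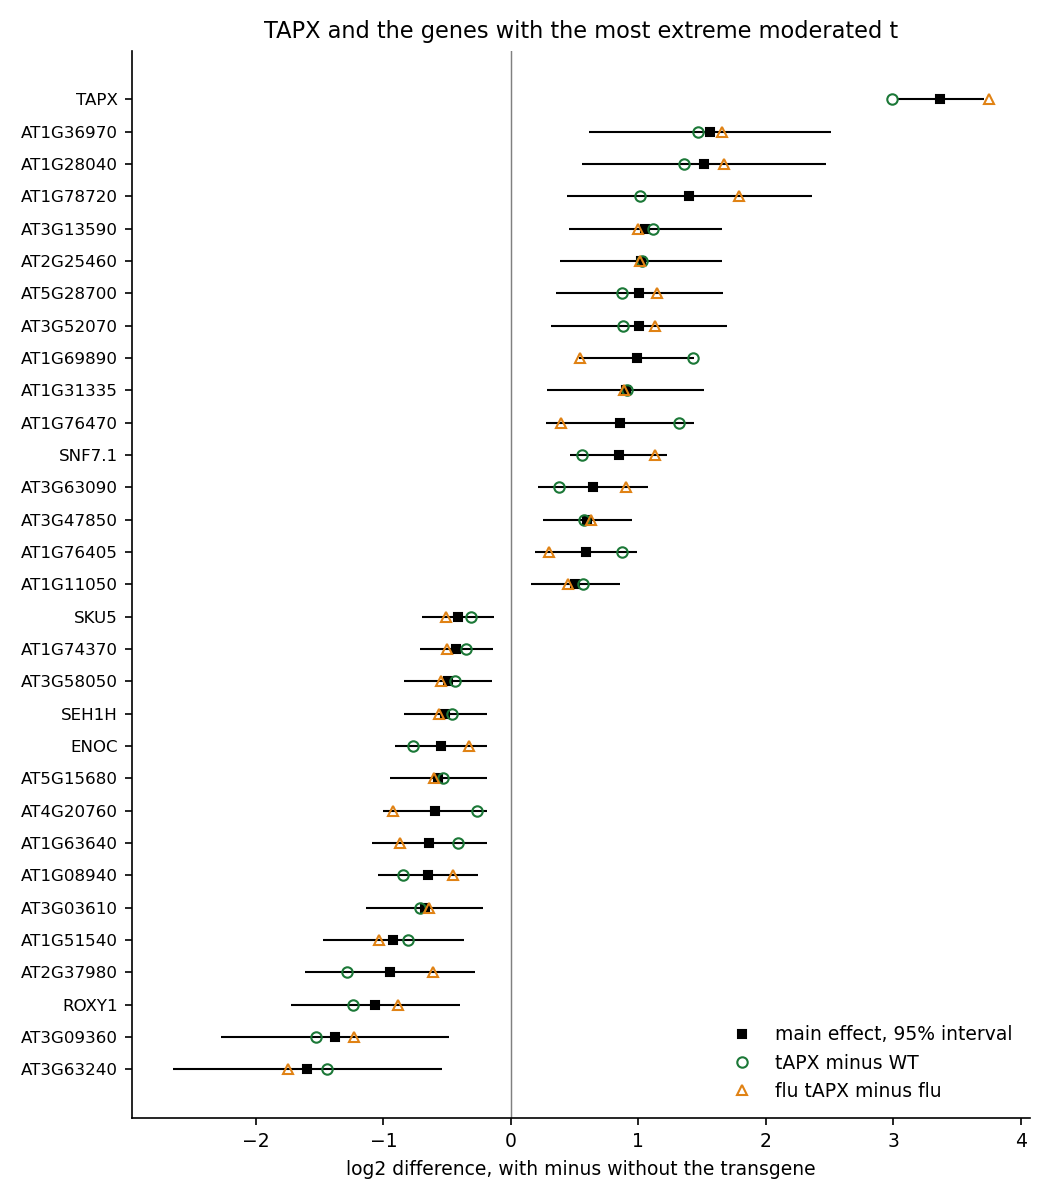
Log2 difference, with minus without the transgene, for TAPX and the 30 genes ranked by moderated t; squares are the effect over both backgrounds with its 95% interval, circles tAPX minus WT and triangles flu tAPX minus flu. TAPX, at 3.37, stood apart from all others, which reached 1.56 and -1.60.

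The effect was also read in each background on its own, from pairs of lines that share no array. Across the 14946 probe sets other than TAPX, tAPX minus WT and flu tAPX minus flu had a Pearson r of -0.21 and a Spearman rho of -0.19, given as a description since probe sets are not independent and each difference is shared by all points of its arrays. The sign was the same for 43.7% of all tested. Of 327 probe sets that differed at least 2-fold between tAPX and WT, 105 (32.1%) had the same sign in flu plants, and of 284 that differed so between flu tAPX and flu, 117 (41.2%) had the same sign without the mutation. Only 10 differed at least 2-fold in both with 1 sign, while 27 did so with opposite signs. A test of the difference between the backgrounds, the interaction, called 0 of 14947 probe sets in limma. At an unadjusted p under 0.05 it had 1031 of 14947, against 431 (2.88%) for the transgene effect. For TAPX itself the interaction was 0.76 ± 0.21 (adjusted p = 0.719).

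**Figure D3:**
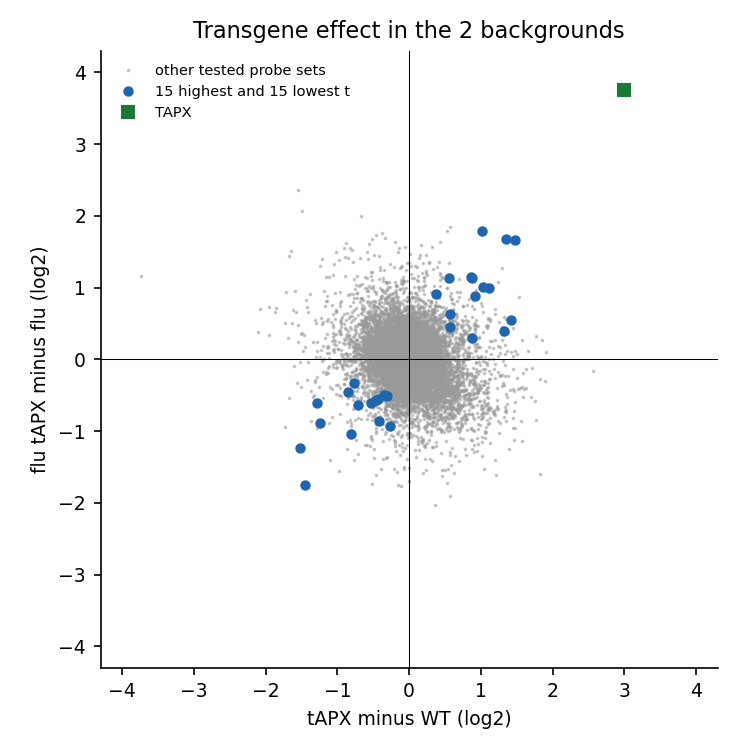
Each point is a tested probe set, with tAPX minus WT (log2) on the horizontal and flu tAPX minus flu (log2) on the vertical axis. TAPX lies alone at 2.99 and 3.75, and the 30 ranked genes lie in the quadrants of equal sign while most points scatter around 0.

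Probe sets that respond to the flu mutation were summarised next. They were chosen by the flu term of the fit on these same arrays, at an adjusted p under 0.05 in limma and at least 2-fold. This term is orthogonal to the transgene term in this balanced layout. That keeps the estimates independent only if all lines vary alike, and median replicate differences were 0.36 in flu tAPX and 0.27 in flu. How far the choice itself moved the medians below was not tested. No test was made on them. The 1626 probe sets raised so by the mutation had a median transgene effect of 0.08, and 65.6% of them lay above 0. The 887 lowered so had a median of -0.12, and 27.3% lay above 0. These compare with -0.02 and 44.3% over all tested other than TAPX. In the flu background alone, the medians were 0.25 for the raised set and -0.29 for the lowered set, against 0.00 for all; without the mutation they were -0.10 and 0.02, against -0.06. The medians of both sets thus lay farthest from that of all probe sets in the flu background. The poly-A controls also differed between flu and flu tAPX, as given above, and their part in these medians was not tested. None of either set was called for the transgene.

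For the ascorbate and glutathione cycle and ascorbate synthesis, in any part of the cell, 7 of 25 listed genes had a named tested probe set, TAPX included. None of the other 6 passed; their median difference was -0.10. SAPX had 2907 and 3028 in WT, 2725 and 2468 in tAPX, 2216 and 2557 in flu, against 1985 and 2600 in flu tAPX. Its groups overlapped in the flu background, and the difference was -0.13 ± 0.12 with an interval of -0.40 to 0.14. GR1, which codes for a glutathione reductase, differed by 0.04 (interval -0.23 to 0.32). GR, another gene of that enzyme, differed by -0.07 (interval -0.49 to 0.34). ATMDAR2, a monodehydroascorbate reductase, had 981 to 1373 in WT and tAPX and 6466 to 8415 in flu and flu tAPX, a clear separation by the mutation. With the transgene it differed by 0.08 (interval -0.23 to 0.38). VTC4 and GLDH, enzymes of ascorbate synthesis, differed by -0.27 ± 0.14 and -0.14 ± 0.17.

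Of 19 genes listed for superoxide dismutases, catalases, peroxiredoxins and glutathione peroxidases, 3 were tested and none called. They were AT3G11630, AT3G52960 and SRX. No listed superoxide dismutase or catalase had a probe set that the annotation named for it alone. Any among the 6807 tested probe sets with no gene or several in the annotation were not identified. AT3G11630 had 13503 and 14124 in WT, 14457 and 13891 in tAPX, 9516 and 11593 in flu, against 8251 and 9408 in flu tAPX, with a difference of -0.11 and an interval of -0.36 to 0.14. AT3G52960 differed by 0.01 (interval -0.23 to 0.26). SRX, the sulfiredoxin that repairs overoxidised peroxiredoxin, had a wider interval of -0.64 to 0.76. Of 13 chloroplast thioredoxin and reductase genes, 7 were tested and none called, with a median of -0.10 that joins 0.17 without the mutation and -0.35 with it. NTRC, a thioredoxin reductase that serves 2-Cys peroxiredoxin, differed by -0.24 ± 0.16, and ty2, a y-type thioredoxin, by -0.27 ± 0.20. The ty2 value joins 0.27 without the mutation and -0.80 with it.

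Of 26 listed genes known to respond to hydrogen peroxide or oxidative stress, 10 had a named tested probe set, and none passed. Their median difference was 0.04 and 6 of 10 lay above 0. STZ, a zinc finger repressor also called ZAT10, had 179.6 and 149 in WT, 171 and 160.3 in tAPX, 4779 and 5264 in flu, against 7354 and 6273 in flu tAPX. Its difference over both backgrounds was 0.23 ± 0.14, made up of 0.01 and 0.44. UGT73B5, a glycosyltransferase, showed the same arrangement with 0.03 and 0.65. WRKY22, a transcription factor of defence signalling, had the largest value of the list, 0.59 ± 0.32, from signals of 16.04 to 292. For 6 of 11 genes of the early singlet oxygen response, the median was 0.00 with a range of -0.18 to 0.28. It averages opposite medians, -0.30 without the mutation and 0.31 with it.

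Defensin-like genes had a median of 0.55 over 4 tested genes, joining 1.49 without the mutation and -0.38 with it. This median rested on single arrays: it was 0.14 without WT replicate 2, 0.29 without tAPX replicate 2, 0.89 without flu replicate 1 and 0.87 without flu tAPX replicate 2. PDF1.2, an antifungal defensin induced by jasmonate and ethylene, had 650.4 and 336 in WT, 1537.5 and 2064.5 in tAPX, 904 and 762 in flu, against 694 and 646.5 in flu tAPX. It was higher on both tAPX arrays than on either WT array, and lower on both flu tAPX arrays than on either flu array. The averaged difference of 0.80 ± 0.39 joins 1.89 and -0.30, and the interaction of -2.20 had an adjusted p of 0.719. PDF1.2b, whose probe set is of a kind that can also read related genes, gave 2.56 and -0.17. LCR68 and LCR69, 2 more defensin-like genes, gave 1.09 and -0.47, and 0.78 and -0.50. JMT, which makes methyl jasmonate, had 279 and 261 in WT, 297 and 285 in tAPX, 716 and 833 in flu, against 893 and 1096 in flu tAPX. Its difference was 0.23 ± 0.14, without overlap in either background, as for 1.75% of all tested probe sets on the high side. OPCL1, an enzyme of jasmonate synthesis, differed by 0.06 (SE 0.11). Of 10 genes of the defence list with a named probe set, 4 did not pass the filter on dim signals and were not tested.

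Membrane traffic and protein turnover gave a like picture. Besides SNF7.1, 11 genes of ESCRT and vacuolar sorting were tested and lay between -0.11 and 0.45, with VPS2.2 at the upper end (0.45 ± 0.44). The 10 tested autophagy conjugation genes had a median of 0.06. ATG8E, which forms the autophagosome membrane coat, joined 0.85 without the mutation to -0.20 with it, and ATG8G 1.35 to -0.48. PUB19, a U-box ubiquitin ligase of abscisic acid and drought responses, had 68.8 and 135 in WT, 167 and 186 in tAPX, 1262 and 1730 in flu, against 1903 and 2005 in flu tAPX. Its groups did not overlap, as for 1.75% of all tested probe sets on the high side, and the difference was 0.58 ± 0.20. The other 7 ligases tested ranged from -0.60 to 0.14. Of 11 glutathione transferases, GSTU26 had the largest difference (0.59 ± 0.37), and the median was 0.06. UDP-glycosyltransferases (33 tested) had a median of -0.02. The lowest of them, UGT76E12, differed by -0.87 ± 0.47, joining -2.11 and 0.38. Cytochromes P450 (16 tested) had a median of -0.08. CYP78A9, known from fruit and seed growth, had 120.3 and 153 in WT, 103 and 82.5 in tAPX, 70.2 and 96.1 in flu, against 22.5 and 21.4 in flu tAPX. It read lower without overlap in either background, as did 2.86% of all tested probe sets, by -0.93 ± 0.31 (adjusted p = 0.999 in limma). Medians were -0.07 for WRKY factors (5 tested), -0.01 for calmodulin-like proteins (6 tested), -0.01 for thioredoxins and glutaredoxins (8 tested) and -0.13 for peroxidases other than TAPX.

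No gene of the chloroplast lists was called. All 7 tested genes of tetrapyrrole synthesis had intervals inside a 2-fold change, against 87.3% of all probe sets, and their median was -0.11. PORB, the light-dependent protochlorophyllide oxidoreductase, differed by -0.06 (interval -0.35 to 0.23), and HEME1, a uroporphyrinogen decarboxylase, by -0.20 ± 0.13. HEME1 read lower with the transgene without overlap: 2726 and 2518 in WT, 2449 and 2391 in tAPX, 1199.5 and 1267 in flu, against 859 and 1183 in flu tAPX. It was the 1 gene of the 7 to do so, and 2.86% of all tested probe sets did. Antenna proteins (3 tested) had a median of -0.11, nuclear photosystem subunits (4 tested) -0.08, and genes for NDH and thylakoid assembly (10 tested) -0.10. Some of these medians average opposite ones: 0.23 without the mutation and -0.34 with it for the photosystem subunits, and 0.15 and -0.31 for NDH and thylakoid assembly. CRR42, needed for the NDH complex, joined 1.22 and -1.61, with WT replicates of 363 and 88.9. All 68 tested plastid-encoded genes had intervals inside a 2-fold change, from -0.28 for rpl20, a ribosomal protein gene, to 0.33 for petN, a subunit of cytochrome b6f. AMY1, an alpha-amylase, had 273 and 283 in WT, 136 and 123 in tAPX, 339 and 375 in flu, against 339.9 and 495 in flu tAPX. That is -1.01 in 1 background and 0.19 in the other. The 3 tested genes of starch breakdown, AMY1 among them, had a median of -0.17.

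**Figure D4:**
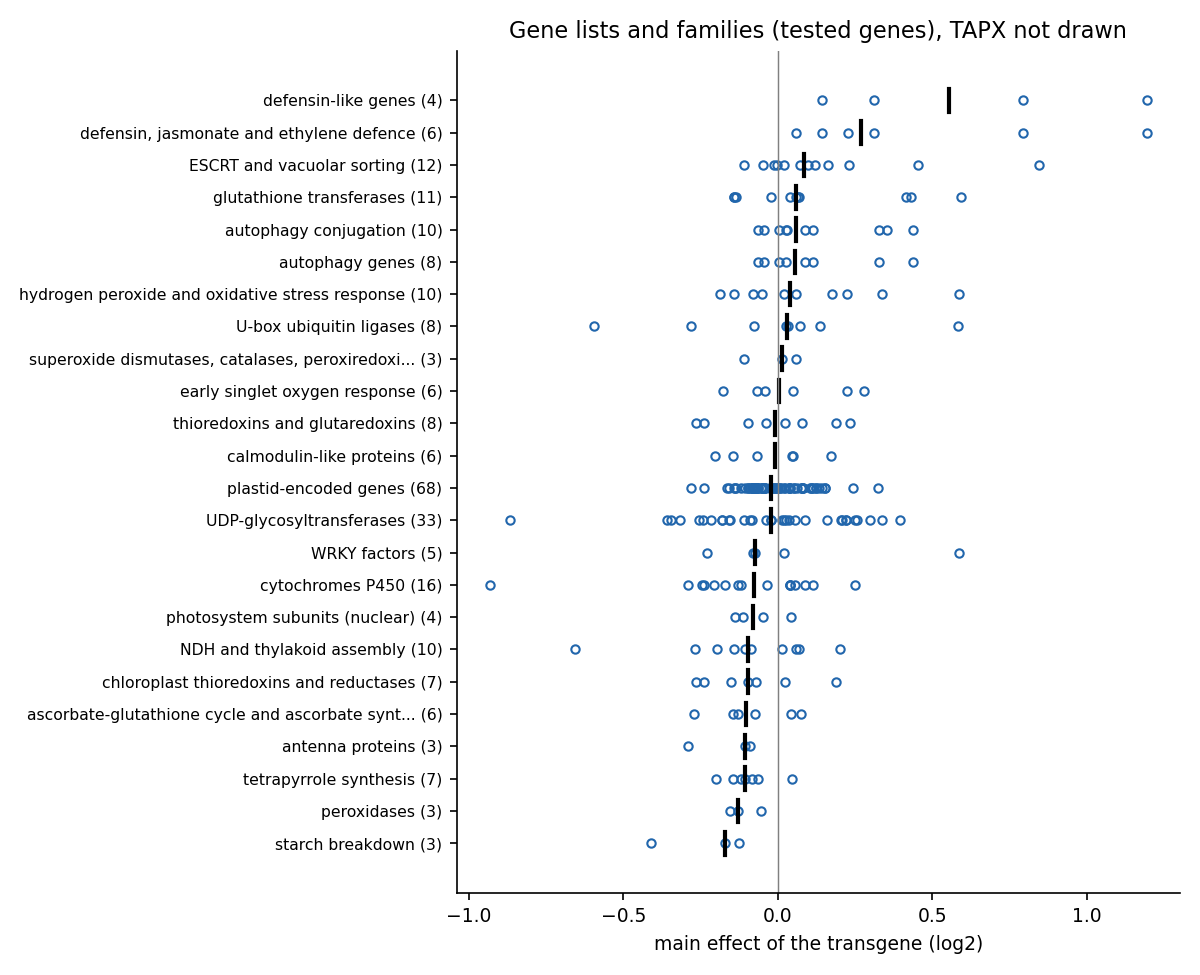
Transgene effect (log2, over both backgrounds) of each tested gene of the lists and families with at least 3 tested genes; points are genes, black bars medians, the number of genes drawn is in parentheses, and TAPX is not drawn. The list medians lie between -0.17 and 0.55, and no gene shown passed the threshold.

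Markers of other leaf cell types had a named tested probe set for 1 gene only. FMA, of the guard cell lineage, had 254 to 264 in WT, 259 to 262 in tAPX, 238 to 270 in flu and 251 to 380.5 in flu tAPX, a difference of 0.14 ± 0.17. In whole leaves, fewer cells of a type and less RNA per cell cannot be told apart.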

How the data were processed

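The deposited table gives MAS5 signal intensity on a linear scale for 22810 probe sets on 8 arrays; MAS5 is named per the submitters' processing notes, without a version. The mean of the middle 96% of the deposited signals was 500.05 on every array, so each was scaled on its own mean. No depth applies to arrays, and their number limits the precision. Tests covered the 14947 probe sets, without the 64 controls, that exceeded their array's 40th percentile on 2 or more arrays. Values were taken as log2(signal + 16), which understates changes of dim probe sets.

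An additive model of flu mutation and transgene was fitted in limma 3.58.1 (R 4.3.3), with variances that follow a trend (5 residual degrees of freedom; prior, median 5.86), two-sided tests and Benjamini-Hochberg adjustment over all tested probe sets, at a threshold of 0.05. Effects per background, the interaction and the flu calls of the ranked genes came from a model of the 4 line means. On simulated arrays with 200 of 14947 probe sets changed, recovery was 77.0% for 2-fold, 98.6% for 4-fold and 95.7% for 8-fold changes. Of the 196 calls, 14 were false. The simulated noise was independent and free of interaction. With 200 changes planted together, the adjustment was also less strict than with the 1 call of the real arrays. Recovery of a lone 2-fold change was therefore not measured.

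Gene names came from the platform annotation, updated through NCBI identifiers to TAIR10.1 symbols. In it 8140 tested probe sets had 1 gene and only these are named. The other 6807 had no gene or several, so a listed gene without a named probe set may still have been measured. Named were TAPX, the 15 highest and 15 lowest moderated t values among these 8140, and members of lists and families (the brightest probe set per gene). Genes that the reference table knows by locus only are given no role. The members, lists and tests were chosen with earlier results of these data known, and AT5G24240 and QQS in the closing section were chosen after their values were seen. The lists of salicylate defence, heat shock, vascular, epidermal, myrosin cell, senescence, flowering and mitochondria-encoded genes had no named tested probe set.

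Replicate numbers are shared between lines, but the labels do not say that a number marks the same experiments. Replicates are pools that the labels call biological. Alternatives were the pseudocount, filter, scaling, variance trend, model, replicate block and leaving out each array.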

Additional observations from a re-analysis of the deposited data

How the results depend on the processing

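TAPX was the only probe set called under all 18 alternatives, with a log2 difference of 3.18 to 3.50 (3.28 to 3.50 when 1 array was left out) and adjusted p-values of at most 0.000695 in limma; no other listed gene was called. The count of probe sets called was 1 whichever array was left out, and the count of list members other than TAPX called was 0. With the replicate block TAPX stood at 3.37 and 1 probe set was called, so pairing changed no call; deviations of same-numbered arrays correlated at -0.08 to 0.35. The count without overlap in both backgrounds was 689, and 1082 with no filter or 453 with the filter at the 60th percentile, where more or fewer probe sets are tested; it was 1149 to 2500 with 1 array fewer, where separation is easier to reach. Poly-A scaling moved the median of all tested probe sets from -0.02 to -0.20. With it GR1 (-0.15), ATMDAR2 (-0.11), AT3G52960 (-0.17), SRX (-0.13), LCR69 (-0.0332), OPCL1 (-0.13), FMA (-0.0357) and SNF7.2 (-0.16) changed sign, as did AT3G52960 with quantile normalization (-0.0147) and RCA with median centring (0.00134). Leaving out 1 array turned the sign of genes with effects near 0 or wide intervals: SNF7.2 (-0.0812 to 0.123), SRX (-0.156 to 0.421), LCR68 (-0.107 to 0.722), LCR69 (-0.198 to 0.594), AT3G52960 (-0.0223 to 0.0793), GR1 (-0.0535 to 0.102), GR (-0.223 to 0.0888), CRR42 (-0.852 to 0.225), VPS2.2 (-0.000804 to 0.902), RCA (-0.0967 to 0.0340), FMA (-0.00111 to 0.227) and PORB (-0.185 to 0.0304). Of 24 list medians, 8 changed sign with poly-A scaling and 17 when some array was left out. All 30 genes ranked by t kept their sign under every alternative they were tested in. They were chosen for extreme t on these same arrays, which itself favours a stable sign. Added after seeing the data, leaving out a flu or flu tAPX array gave medians of 0.21 to 0.28 for flu tAPX minus flu over mutation-raised probe sets and -0.36 to -0.24 over lowered ones.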

Other observations

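Some genes differed at least 2-fold with the transgene in each background but in opposite directions. They were singled out after their values were seen, and the interaction called none of them (adjusted p of 0.719 or more in limma). Of the 27 such probe sets, 18 had 1 gene. AT5G24240 had signals of 247 and 427 in WT, 10.8 and 8.32 in tAPX, 16.4 and 7.32 in flu, against 33.8 and 59.8 in flu tAPX. The WT arrays alone were bright. QQS, a gene that affects the balance of starch and protein in leaves, had 149.6 and 134 in WT, 518 and 564 in tAPX, 778 and 132 in flu, against 177 and 49.9 in flu tAPX. Its replicates differed widely in both lines with the mutation.

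The genes next to the native TAPX gene on chromosome 1 were also read. Among the 30 annotated genes on either side, 17 had a named tested probe set. Their differences with the transgene ranged from -0.32 to 0.22, and none was called. AT1G77480 and AT1G77500, the direct neighbours, each differed by -0.10. The position of the inserted transgene was not determined, so an effect at its insertion site was not tested.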
